A study of Mus musculus with 38 samples.

Results

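The genes described here encode the chaperonins of mouse cells: Hspd1 and Hspe1 for HSP60 and HSP10, and the 8 TRiC genes Tcp1, Cct2, Cct3, Cct4, Cct5, Cct6a, Cct7 and Cct8. The members were fixed by name, and a binding interval was assigned to a gene when it covered or lay within 1 kb of any of its annotated transcript starts (mm10, GENCODE M21 basic). By this rule, 8 of the 10 genes had an HSF1 interval and the same 8 had an HSF2 interval, while Cct2 and Cct5 had neither. Hspd1 and Hspe1 lie head to head and share 1 interval in each list, so the 8 genes correspond to 7 of the 1726 HSF1 intervals and 7 of the 2135 distinct HSF2 intervals.

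CUT&Tag was used to map the binding of HSF1, HSF2 and SOX2 in the mouse embryonic stem cell line JM8. In this assay an antibody guides the Tn5 transposase to its target, where Tn5 cuts the nearby DNA and adds adapters for sequencing. Each protein was mapped in asynchronous cells (A) and in mitotic cells (M), which were collected by shake-off after 6 h in nocodazole, an inhibitor of tubulin polymerisation, at 50 ng/ml. Wild type JM8 cells gave the endogenous HSF1, HSF2 and SOX2 signals. The other cells were Hsf2-/- JM8, a clone made by CRISPR, that stably expressed 1 of 2 tagged constructs from a PiggyBac insertion: Halo-HSF2, which is HSF2 joined to the HaloTag, or Halo-H2DBD, which is the DNA-binding domain of HSF2 with its nuclear localization signals joined to the HaloTag. Both constructs were mapped with an antibody against their HA tag (anti-HA), and Halo-HSF2 also with anti-HSF2. Every condition had 2 libraries, and the deposited values are their mean, so there was no replicate spread, no test was possible, and the differences below are descriptions of averaged tracks.

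Chaperonins are large ring-shaped assemblies that enclose an unfolded protein and release it folded, using ATP. HSP60 is the chaperonin of the mitochondrial matrix and HSP10 is the lid that closes its ring. TRiC, also called CCT, is the chaperonin of the cytosol; its paired rings are each built of 8 different subunits, and actin and tubulin are its best known clients. Heat shock factors bind DNA as trimers, and their binding sequence, the heat shock element, is a run of inverted 5-base units that contain GAA.

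The sequences that the HSF results refer to are the heat shock elements inside the intervals, searched on both strands as 3 units in a row, either GAA, TTC and GAA or TTC, GAA and TTC, with any 2 bases between neighbouring units. Each line below gives the stretch from the GRCm38 reference with its strand, 5′ to 3′, and the capitals mark the element.
Hspd1/Hspe1, chr1:55088053-55088082, + strand: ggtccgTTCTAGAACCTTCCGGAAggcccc
Tcp1, chr17:12916804-12916832, + strand: taagggaaGAATGTTCGAGAAtgcacacg
Cct4, chr11:22990637-22990665, + strand: gcgtcgctTTCTGGAAGGTTCgtggagga
Cct8, chr16:87495608-87495636, - strand: gggatggaGAAGGTTCTAGAAagggaagc

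At Hspd1/Hspe1 the run was 4 units long and so held 2 overlapping matches. It lay in the 107 bases between the 2 starts, 47 bp upstream of Hspd1 and 68 bp upstream of Hspe1 at the nearer match, counted here and below to its 5′ end in the direction of the gene. In the basic annotation no transcript covers it, although a longer Hspd1 transcript of the comprehensive annotation does. The Tcp1 element lay in an intron, 370 bp downstream of the nearest start. The Cct4 element lay across the second annotated start of the gene, in the 5′ UTR exon of the longer transcript. The Cct8 element lay in an intron 160 bp downstream of the nearest start. Its 13 letters were identical to 1 of the 2 overlapping matches at Hspd1/Hspe1.

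The element was thus present in 4 of the 7 HSF1 intervals and in 4 of the 7 HSF2 intervals, beside 16.0% of 1719 HSF1 intervals and 14.1% of 2131 HSF2 intervals searched. The run of 4 units at Hspd1/Hspe1 was found in 2.27% of the HSF1 intervals and 1.13% of the HSF2 intervals. Within 250 bp of the first start, 3 of the 10 chaperonin genes held the 3-unit element, beside 0.775% of 21938 protein-coding genes. Only 7 coding genes had 4 units within that distance, and Hspd1 and Hspe1 were 2 of them through the 1 run they share. The same run accounts for 2 of the 3 chaperonin genes with the 3-unit element. Among 32851 RefSeq promoter windows of 300 bases (GRCm38.p6), 0.603% held the 3-unit element, including 1 of 2 windows of Hspd1 and the window of Hspe1. Cct3 and Cct6a had near matches, which are shown because these 2 intervals held no full element. In the lines below the capitals mark 13 letters that differ from the pattern at 1 of its 9 fixed bases.
Cct3, chr3:88297168-88297196, + strand: gctcttctCTCCAGAAGGTTCtgccgatt
Cct6a, chr5:129787367-129787395, + strand: gtgcgtaaGACTTTTCGAGAAgaccccgc
Cct6a, chr5:129787760-129787788, + strand: ggcgtgtgCAACCTTCCCGAAcccagccc

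Near matches of this kind were common, occurring in 51.3% of the HSF1 intervals and 49.2% of the HSF2 intervals when full elements are included. The interval of Cct7 held no match even with 1 mismatch allowed. A match describes letters in the reference and not occupancy, and its absence refers only to the window searched.

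All 7 member intervals in each list covered a start of their gene, so none was close to the 1 kb limit. For comparison, 4.53% of 21951 protein-coding genes had an HSF1 interval by the same rule, 8.32% had an HSF2 interval and 3.13% had both. Cct6a is not counted among those coding genes because the annotation types it as a processed transcript. The 2 genes without a site were far from any: the nearest HSF1 interval was 1861845 bp from Cct2 and 2840643 bp from Cct5, and the nearest HSF2 interval was 1861823 bp and 6697125 bp away. Neither gene had a full element within 1 kb of its first start. Each had 2 near matches, with 1 mismatch, within 1 kb of a start. Matches with at most 1 mismatch lay within 1 kb of the first start in 39.1% of coding genes.

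The intervals differed in size between the factors. At the 6 TRiC genes with sites the HSF1 interval lay wholly inside the HSF2 interval, which was 1.30 (Cct7) to 3.64 (Cct8) times as wide. At Hspd1/Hspe1 the intervals were of similar width, with 5383 bp for HSF1 and 4993 bp for HSF2, and 88.4% of the HSF1 interval was shared. These were the widest of the member intervals, the medians being 1815 bp for HSF1 and 2776 bp for HSF2, and the lists had median widths of 1938.5 and 2395 bp.

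**Figure D1:**
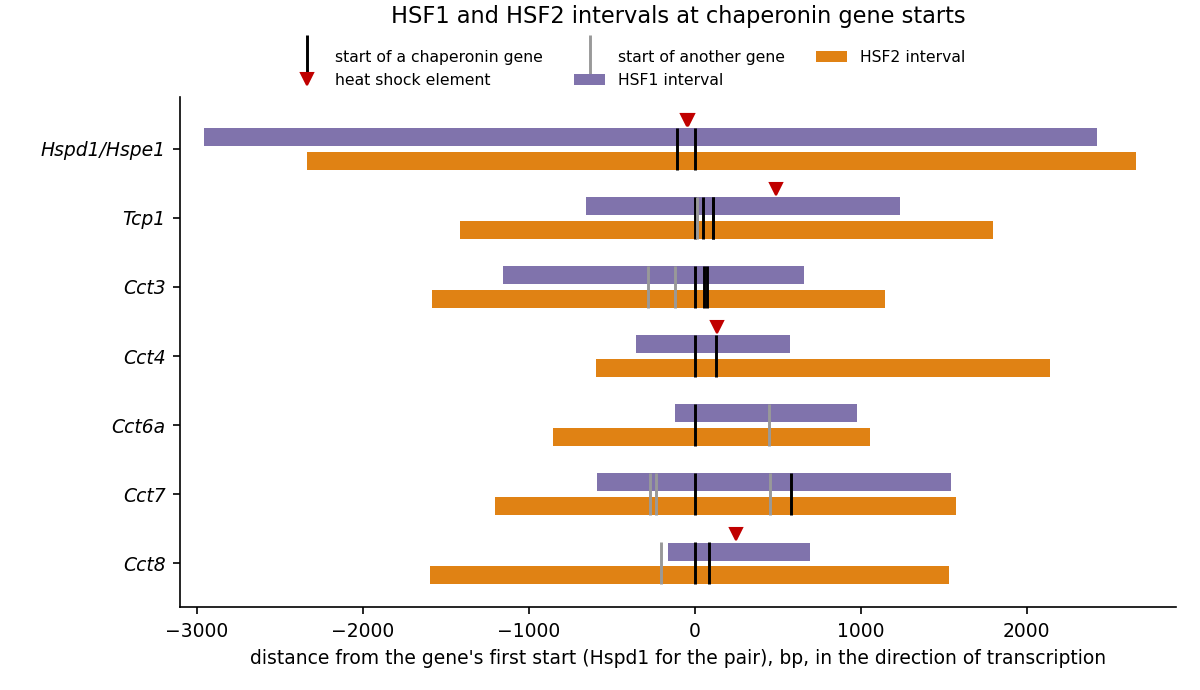
HSF1 intervals (purple) and HSF2 intervals (orange) at the 7 chaperonin sites, drawn to scale in bp from the first annotated start of each gene, with transcription to the right. Ticks mark starts of chaperonin genes (black) and of other genes (grey), and triangles mark full heat shock elements, which are present at 4 sites; the HSF1 interval lies inside the HSF2 interval at the 6 TRiC genes.

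Most of these starts are shared promoters. The HSF1 interval covered the starts of 2 genes at 5 of the 7 sites (33.1% of all HSF1 intervals over a start covered 2 or more) and the HSF2 interval at 6 of the 7 (34.2% of all HSF2 intervals over a start). The partner of Tcp1 was Mrpl18, a mitochondrial ribosomal protein gene, with starts as close as 16 bp. Cct3 faced Tsacc at 117 bp, Cct7 faced Pradc1 at 122 bp, and Cct6a had a start of Psph, an enzyme of serine synthesis, at 451 bp. Cct8 faced the non-coding gene B130034C11Rik at 200 bp, which the HSF1 interval did not reach. Cct4 alone had no partner. Signal at a shared promoter cannot be assigned to 1 of the 2 genes. Of the genes without a site, Cct5 also has a close partner, Fam173b, at 314 bp. The GC content within 250 bp of the first start ran from 55.5% at Cct5 and Cct6a to 74.5% at Hspd1, around a median of 57.7% for coding genes, and Hspe1 had 73.7%.

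Values below are the mean spike-in scaled signal per base over an interval, and the log2 ratio is that of the value in M over the value in A, with no pseudocount. Ranks run from 1, the highest signal in the list. Apart from this ratio, levels were compared between intervals of 1 track and not between tracks.

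HSF1 signal was lower in mitotic cells at all 7 chaperonin sites. In the whole HSF1 list, 91.9% of intervals were lower in M, so this count is near the background. The shared Hspd1/Hspe1 interval had 24.2 in A and 15.0 in M, a log2 ratio of -0.69. Cct7, which encodes the eta subunit of TRiC, was just as high, with 25.2 in A and 16.3 in M (log2 ratio -0.63). These 2 sites stood well above the other 5. Of the 1726 intervals they ranked 76 and 72 in A and 75 and 62 in M.

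The 3 intermediate HSF1 sites were Tcp1, Cct3 and Cct6a, the genes of the alpha, gamma and zeta subunits. Cct3 had 8.88 in A and 5.14 in M (log2 ratio -0.79), the largest difference of the 7. Cct6a had 8.51 in A and 6.38 in M (-0.42). Tcp1 had 7.95 in A and 6.84 in M (-0.22), the smallest difference. The order of the 3 was reversed in M, where Tcp1 ranked 383, Cct6a 440 and Cct3 631, against 624, 551 and 516 in A. The weakest sites were Cct4 (delta subunit) with 4.27 in A and 2.56 in M (-0.74), and Cct8 (theta subunit) with 3.95 in A and 2.83 in M (-0.48). Both were below the list medians of 6.21 in A and 4.07 in M.

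The median log2 ratio over the 7 HSF1 sites was -0.63, beside -0.62 for the list. No member differed by a factor of 2 or more, whereas 17.7% of the list was lower by at least that much. The chaperonin sites therefore lay in the middle of the HSF1 list by this measure, with 4 below and 3 above its median. The HSF1 site list carries a second pair of signal columns, in which all 7 sites were again lower in M, with a median of -1.99 beside -2.41 for that list. In those columns every member was lower by more than a factor of 2, from -1.28 at Cct8 to -3.06 at Cct4, so the absence of such differences and the order of the sites hold only for the columns used above.

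HSF2 signal was far higher at Hspd1/Hspe1 than at any TRiC gene. The shared interval had 71.9 in A and 96.6 in M, a log2 ratio of 0.43, and ranked 16 of 2135 in A and 15 in M. In A this was 12.5 times the median of the 6 TRiC sites, which was 5.76. For HSF1 the same ratio was 2.94. When the mean was multiplied by the width of the interval, Hspd1/Hspe1 ranked 8 for HSF2 and 17 for HSF1 in A.

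Among the TRiC genes the HSF2 levels were 12.3 in A and 10.7 in M at Tcp1 (log2 ratio -0.20) and 10.7 in A and 12.9 in M at Cct3 (0.26). These 2 sites were above the list medians of 4.14 in A and 5.85 in M in both phases. Cct7 had 5.94 in A and 5.28 in M (-0.17). Cct4 had 5.58 in A and 3.23 in M (-0.79), and its rank moved from 751 to 1802. Cct8 had 4.42 in A and 3.85 in M (-0.20). In these 3 genes the signal was above the list median in A and below it in M. Cct6a was lowest, with 2.45 in A and 2.93 in M (0.26), at rank 1634 and 1874.

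In contrast to HSF1, HSF2 did not differ in 1 direction. It was higher in M at 3 of the 7 chaperonin sites (Hspd1/Hspe1, Cct3 and Cct6a) and lower at 4, beside 72.3% higher and 27.7% lower in the whole HSF2 list. The median log2 ratio over the 7 sites was -0.17 and that of the list was 0.49; of the 1556 HSF2 intervals within 1 kb of a coding start, the median was 0.62 and 78.7% were higher. All 7 chaperonin sites were below the list median of log2 ratio, from just under it at Hspd1/Hspe1, which exceeded 46.2% of the list, to Cct4, which exceeded 9.41%. No chaperonin site differed by a factor of 2 or more, whereas 30.1% of the list was higher in M and 7.26% lower by at least that much. The list itself varied with signal. Its median log2 ratio was 0.71, 0.62, 0.49 and 0.11 from the weakest to the strongest quartile of signal, and the 7 sites fell in all 4 quartiles. Hspd1/Hspe1, Cct3 and Tcp1 were in the strongest, where Hspd1/Hspe1 and Cct3 lay above the quartile median and Tcp1 below it. Summarised by means instead, the sign differed, since the log2 ratio of the mean over the 7 sites, which Hspd1/Hspe1 dominates, was 0.26.

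**Figure D2:**
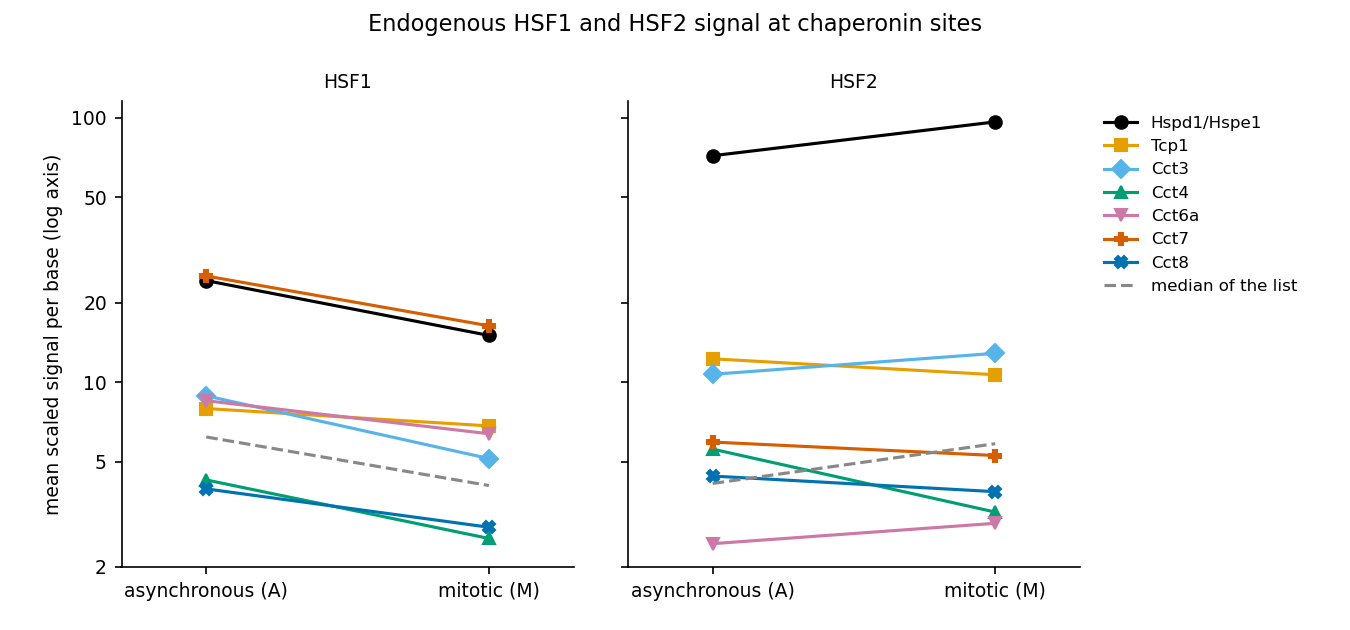
Mean scaled signal per base (log axis) of endogenous HSF1 (left) and HSF2 (right) in asynchronous and mitotic cells at each chaperonin site, 1 averaged value per point, with the median of all intervals of the list as a dashed line. All 7 HSF1 lines slope down, and HSF2 at Hspd1/Hspe1, with 71.9 in A and 96.6 in M, stands apart from the TRiC genes.

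The 2 factors ordered the chaperonin sites differently in A. Cct7 was the highest of the 7 for HSF1, above 95.8% of that list in A, and the fourth of the 7 for HSF2, above 67.6% of that list. Cct6a exceeded 68.1% of the HSF1 list and 23.5% of the HSF2 list. Of 888 overlapping pairs of HSF1 and HSF2 intervals, only 9.23% had a difference between the 2 percentiles further in favour of HSF1 than Cct6a, and 21.4% further than Cct7. The other 5 sites stood higher in the HSF2 list in A, by 3.65 percentage points at Hspd1/Hspe1 to 33.8 at Cct4. In M this order changed at Cct4, which exceeded 27.5% of the HSF1 list and 15.6% of the HSF2 list, and at Cct8, with 31.1% and 23.5%. Cct6a and Cct7 stood higher in the HSF1 list in M as well. In the second signal columns of the site lists, Cct4 ranked 556 for HSF1 and 812 for HSF2 in A, against 1190 and 751 here. The gap of 33.8 points at Cct4 in A therefore holds only for the columns used above.

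The difference between the factors in log2 ratio, HSF2 minus HSF1, was positive at 6 of the 7 sites, beside 87.2% of the 888 pairs. It was 1.11 at Hspd1/Hspe1 and 1.05 at Cct3, where HSF1 was lower and HSF2 higher in mitotic cells, and 0.67 at Cct6a. At Cct7 it was 0.46 and at Cct8 0.29. Tcp1 with 0.018 and Cct4 with -0.056 showed nearly the same ratio for both factors. The median of 0.46 was below the 0.96 of all pairs. This near equality holds only for the columns used above. In the second signal columns of the site lists, Tcp1 had -1.40 for HSF1 and -0.18 for HSF2, and Cct4 had -3.06 and -0.71. The list medians there were -2.41 for HSF1 and 0.51 for HSF2, and the HSF2 ratio was above the HSF1 ratio at all 7 sites.

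**Figure D3:**
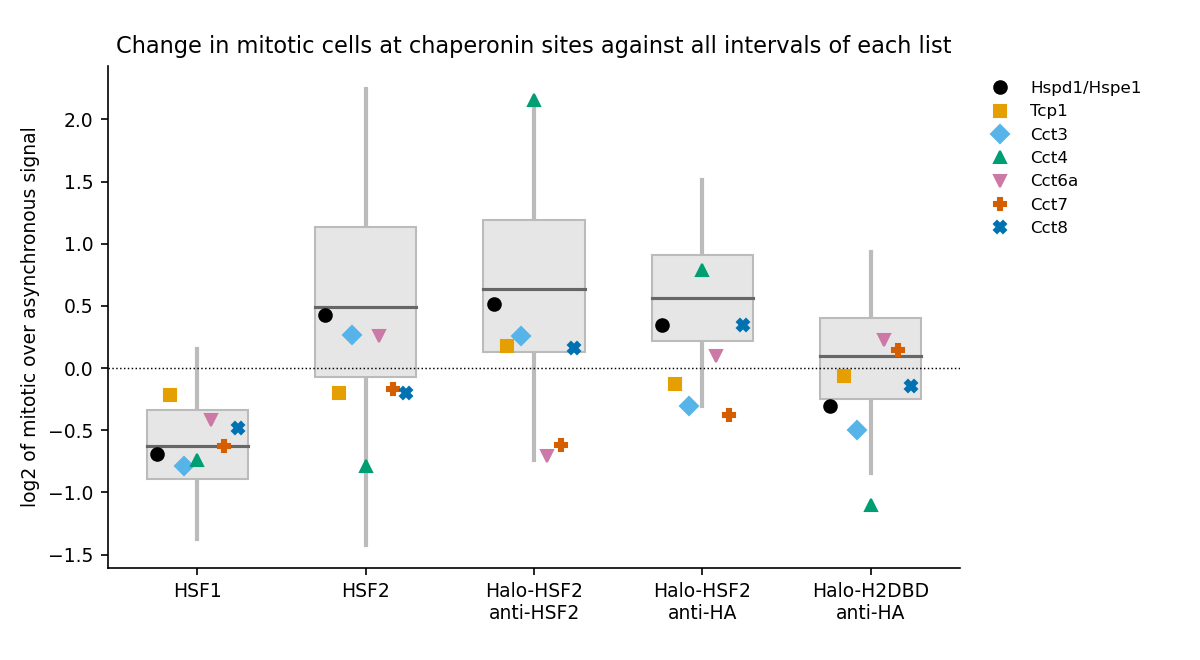
Log2 of mitotic over asynchronous signal at the 7 chaperonin sites (symbols) for 5 signals, over the distribution of all intervals of the list (box, 25th to 75th percentile with median; grey line, 5th to 95th percentile). HSF1 values lie around the list median of -0.62, and the 7 HSF2 values lie below the list median of 0.49.

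Neither construct placed Hspd1/Hspe1 high in the list. With anti-HSF2 on Halo-HSF2 the interval had 1.28 in A and 1.83 in M (log2 ratio 0.52), at rank 1356 and 1433 of the same 2135 intervals. With anti-HA it had 1.20 in A and 1.52 in M (0.35), at rank 1225 and 1496. Halo-H2DBD with anti-HA gave 1.59 in A and 1.29 in M (-0.30), at rank 1119 and 1533. The interval was below the list median in all 6 of these values. In A it was 1.78 times the median of the TRiC sites with anti-HSF2, 0.886 times with anti-HA on Halo-HSF2 and 0.974 times with Halo-H2DBD. The signal of the Hsf2-/- cells without a construct and of the HA control was not analysed here, so the part of these low values that is background was not tested. A lower standing for the constructs was not particular to Hspd1/Hspe1. Hsp90aa1, at rank 13 for endogenous HSF2 in A, ranked 1630, 1254 and 1390 for these construct signals in A, in the order above. Hspa8, at rank 14, ranked 1180, 514 and 654.

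At the TRiC genes the Halo-HSF2 signal with anti-HSF2 was 0.489 in A and 0.554 in M at Tcp1, 0.814 and 0.976 at Cct3, and 0.620 and 0.694 at Cct8. It was lower in M at Cct6a, with 1.43 in A and 0.878 in M, and at Cct7, with 1.63 and 1.06. Cct4 had the lowest value of the members, 0.117 in A, and 0.522 in M. Its log2 ratio of 2.16 rests on that low value, and its ranks were 2109 and 2093 of 2135. Across the 7 sites 5 were higher and 2 lower in M, beside 79.7% and 20.3% of 2121 intervals, and Cct4 was the only 1 of the 7 higher by a factor of 2 or more, as 33.5% of the intervals were, with a median log2 ratio of 0.18 beside 0.64 for the list.

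With anti-HA, Halo-HSF2 gave 1.34 in A and 1.22 in M at Tcp1, 1.78 and 1.44 at Cct3, and 2.10 and 1.62 at Cct7. These 3 sites were lower in M. The value was higher in M at Cct4, with 0.829 and 1.44, and at Cct8, with 0.507 and 0.645, and was 1.36 and 1.46 at Cct6a. In all, 4 of the 7 sites were higher and 3 lower in M, beside 86.3% and 13.7% of the list, none was higher by a factor of 2 or more, as 19.8% of the list was, and the median log2 ratio was 0.097 beside 0.57. The 2 Halo-HSF2 signals differed in direction at Tcp1, Cct3 and Cct6a. They differ in antibody and in the form of the construct, which cannot be told apart here. In M, none of the 7 sites was above the list median of Halo-HSF2 with either antibody.

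Halo-H2DBD, which lacks the heptad repeats through which HSF2 forms trimers, gave 1.42 in A and 1.36 in M at Tcp1, 1.84 and 1.30 at Cct3, 1.25 and 0.583 at Cct4, and 0.885 and 0.799 at Cct8. Cct6a with 2.24 and 2.61 and Cct7 with 2.07 and 2.30 were the highest of the 7 sites and were the only ones higher in M. They exceeded 73.3% and 65.5% of the list in M, and the other 5 were below its median. Thus 2 of the 7 sites were higher and 5 lower in M, beside 58.6% and 41.4% of 2134 intervals, with Cct4 lower by more than a factor of 2, as 3.37% of the intervals were, and the median log2 ratio was -0.15 beside 0.098.

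**Figure D4:**
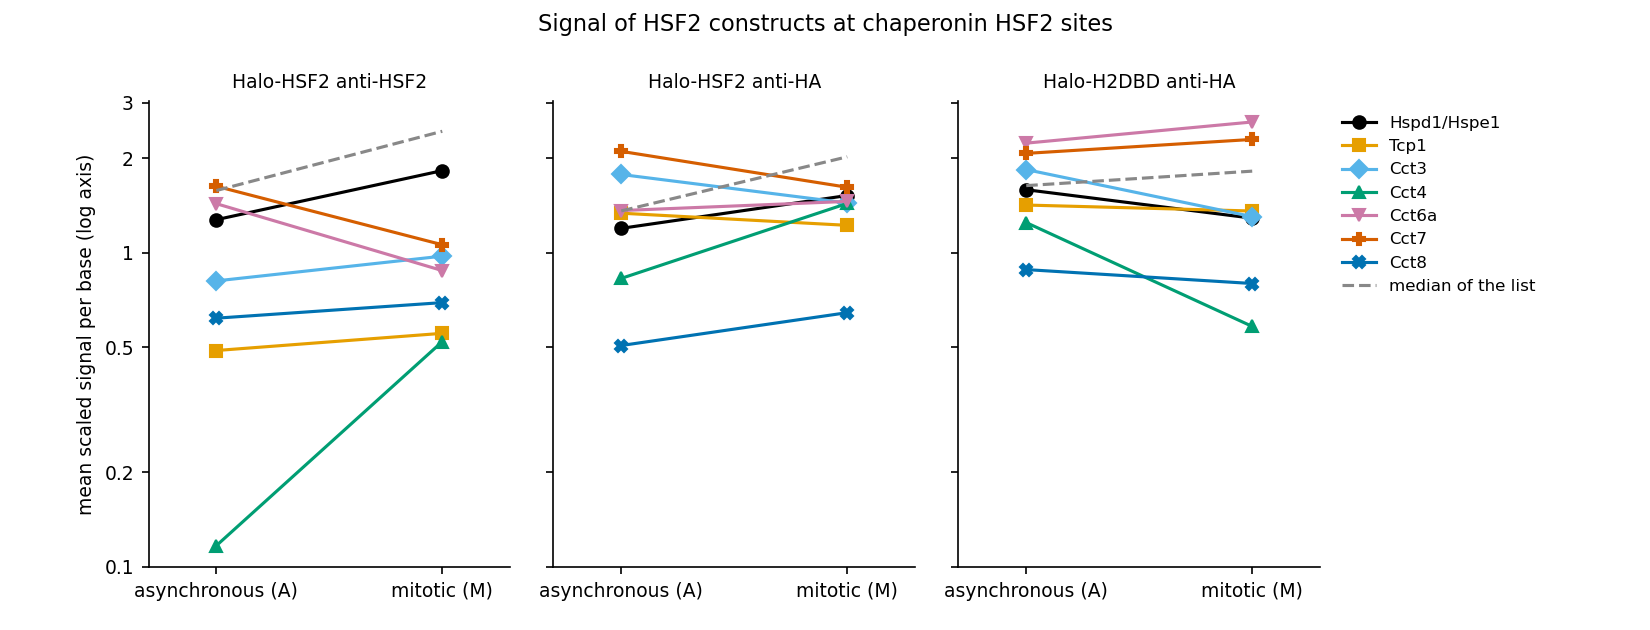
Mean scaled signal per base (log axis) of Halo-HSF2 with anti-HSF2, Halo-HSF2 with anti-HA and Halo-H2DBD with anti-HA in asynchronous and mitotic cells at the 7 HSF2 intervals of the chaperonin genes, 1 averaged value per point, with the median of the list dashed. In mitotic cells all 7 sites lie below the list median for Halo-HSF2 with either antibody, and Cct6a and Cct7 lie above it for Halo-H2DBD.

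Both constructs were compared with the same antibody over the same intervals. The log2 ratio of Halo-H2DBD minus that of Halo-HSF2 was -0.65 at Hspd1/Hspe1, -0.20 at Cct3, -1.89 at Cct4 and -0.49 at Cct8, and it was 0.065 at Tcp1, 0.13 at Cct6a and 0.53 at Cct7. It was thus negative at 4 of the 7 sites, beside 77.9% of 2134 intervals, with a median of -0.20 beside -0.46.

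**Figure D5:**
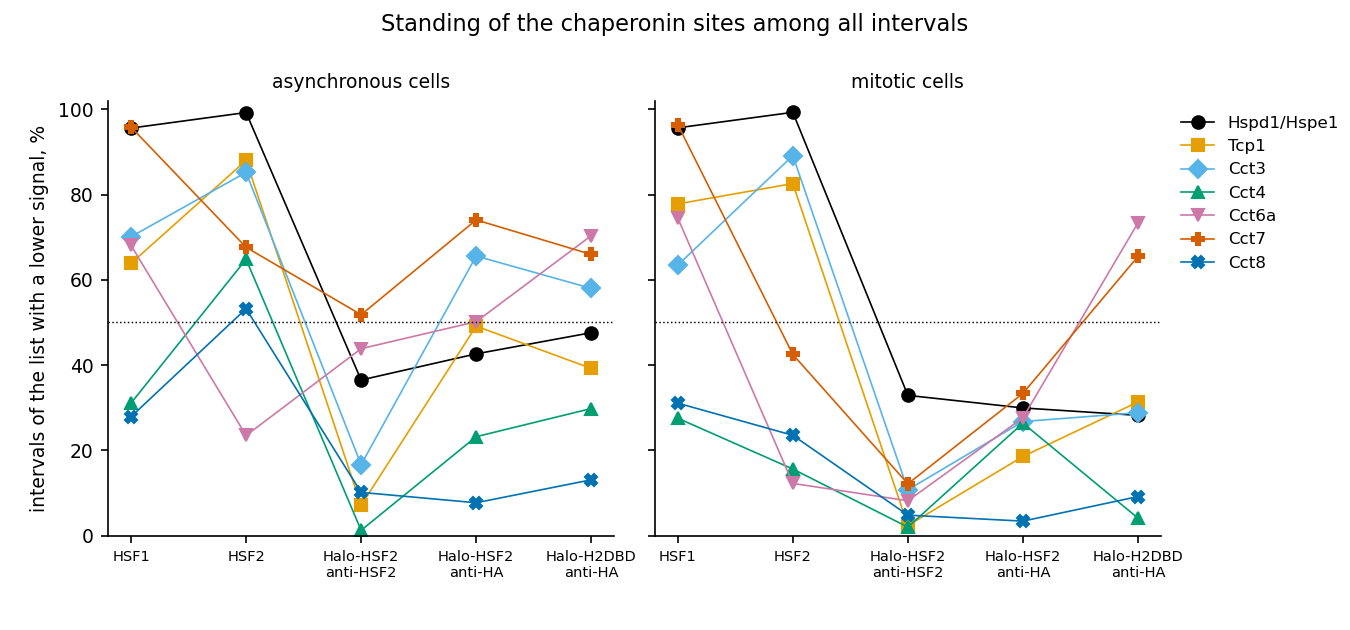
Percentage of intervals of the list with a lower signal than each chaperonin site, for 5 signals in asynchronous (left) and mitotic (right) cells; HSF1 refers to the 1726 HSF1 intervals and the other signals to the 2135 HSF2 intervals, and the dotted line marks the median. Hspd1/Hspe1 exceeds 99.3% of the list for HSF2 in A and in M, and less than 50% for each construct.

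The 5 HSF2 intervals at coding starts whose 8 endogenous and construct values were most like those of Hspd1/Hspe1 were at Hsp90aa1, Spo11, Hspa8, Stip1 and Hsph1. Likeness was the Euclidean distance over 8 values on the log2(value + 0.1) scale, which was 0.862, 1.19, 1.19, 1.22 and 1.43 for these genes, against a median of 6.27 over 1555 other promoter intervals. All but Spo11, a gene of meiotic recombination, encode chaperones or a co-chaperone. HSF2 at Hsp90aa1, an HSP90 gene, was 75.7 in A and 60.3 in M, and at Hspa8, the constitutive HSC70 gene, 74.3 and 79.3. At Stip1, which encodes the adaptor between HSP70 and HSP90, it was 90.8 and 147. Spo11 had 115 and 69.2 and Hsph1 had 114 and 96.6, both lower in M. The share of chaperone genes among all intervals of high HSF2 signal was not counted.

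Genes that work with chaperonins were examined in 3 lists, to be read beside the 4.53% of coding genes with an HSF1 interval and the 8.32% with an HSF2 interval. Of 14 cofactors and relatives of TRiC, including the prefoldin subunits that deliver clients to it, 1 had an HSF1 interval and an HSF2 interval. This was Mkks, a chaperonin-like gene of the cilium, with HSF1 at 12.9 in A and 7.79 in M and HSF2 at 3.59 in A and 9.26 in M. Of 11 actin and tubulin genes, the clients of TRiC, 2 had an HSF1 interval (Tuba1c and Tubb4b) and 7 an HSF2 interval. HSF2 was higher in M at all 7, beside 72.3% of the HSF2 list and 78.7% of its intervals at coding starts, with a log2 ratio of 0.71 at Actb, 1.52 at Actg1, 2.06 at Tuba1b, 0.10 at Tuba1c, 0.40 at Tubb2b, 0.59 at Tubb4b and 0.44 at Tubb5. Both HSF1 intervals were lower in M, as were 91.9% of the list. Of 13 other mitochondrial chaperones and proteases, Lonp1, a matrix protease, had an HSF1 interval (10.2 in A, 7.60 in M), and 3 had an HSF2 interval. These were Hspa9, the mitochondrial HSP70, with 4.77 and 8.24, its exchange factor Grpel2 with 0.973 and 3.50, and Lonp1 with 7.34 and 10.2. The highest HSF2 value among them was thus well below the 71.9 of Hspd1/Hspe1 in A.

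SOX2, a factor of the pluripotency network, was mapped on a separate list of 15081 sites, and of the chaperonin genes only Cct3 had 1 of them within 1 kb of a start. It lay 18 bp from the start and was 124 bp wide, with a signal of 50.8 in A and 54.0 in M (log2 ratio 0.086), at rank 941 and 1517.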

How the data were processed

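The deposited values are coverage signal. According to the methods, the authors aligned reads to mm10 with Bowtie2, kept PCR duplicates, scaled coverage by Drosophila spike-in reads, called HSF sites with SEACR, using IgG as the control, and combined those of both phases, and took SOX2 sites from the literature. The deposited signal is the mean over each site of scaled tracks, already averaged over 2 libraries per condition, so depth is unknown from the values and no interval or test was possible. The methods also say that asynchronous samples were set to 1, whereas the supplement lists other scaling values for the asynchronous anti-HA libraries. Which scaling the deposited tracks carry is unclear, so levels were not compared between proteins or constructs. Each log2 ratio of M over A sets 2 tracks of 1 signal against each other and therefore depends on that scaling. The series has 38 libraries in 19 conditions. Values of 12 conditions were held in the files and 7 conditions were not analysed here (IgG in A and M, the HA control, and HSF2 in Hsf2-/- cells alone in A and M or mixed with wild type cells).

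From these values the log2 ratio of M over A was computed per interval without a pseudocount, with ranks over each whole list, repeated intervals counted once. Starts came from GENCODE M21 basic, and elements were searched in GRCm38. Named genes were the members, genes sharing their intervals, listed partners with an interval, and the 5 intervals most like the strongest one. The members and lists were chosen with earlier results of these data known. The calculations were tested on simulated data. Alternatives were pseudocounts of 0.1 and 1, centring, the ratio of means, other distances and definitions of a start, a minimum signal, the columns of the site lists, and longer, shorter or mismatched elements. Python 3.11.15, numpy 2.4.6, pandas 2.3.3, pysam 0.24.0, samtools 1.23.1 and matplotlib 3.10.9 were used.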

Additional observations from a re-analysis of the deposited data

How the results depend on the processing

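No paired analysis was possible because the deposited columns are means over the libraries of a condition, and for the same reason leaving out a replicate was not run. The number of chaperonin genes with an interval was 8 for each factor when the interval had to cover a start, within 5 kb, with starts of gene records, or with all transcripts of the comprehensive annotation, which was chosen after the data were examined. With only intervals at or above the median signal of the list it was 6 for HSF1 and 5 for HSF2. Centring on the list median moved the median log2 ratio of M over A over the 7 sites to -0.0033 for HSF1, -0.66 for HSF2, -0.46 for Halo-HSF2 with anti-HSF2 and -0.47 with anti-HA, and the difference to -0.66 for HSF2 minus HSF1 and 0.27 for Halo-H2DBD minus Halo-HSF2. The last 4 thereby changed sign. Centring on the weakest quartile gave -0.031, -0.88, -0.35 and -0.60 for the first 4. The ratio of means gave 0.26 for HSF2, a change of sign that reflects the weight of Hspd1/Hspe1, and 0.030 for Halo-HSF2 with anti-HSF2. A pseudocount of 1 gave 0.065 for the latter. Leaving out Hspd1/Hspe1, chosen after the data were examined, gave -0.016 for Halo-HSF2 with anti-HA, a change of sign. The columns of the HSF1 site list gave -1.99 for HSF1, whose list median in those columns was -2.41; the cause of this difference in scale was not tested. With 2 units the element was in 7 of 7 intervals of either list, beside 67.5% of HSF1 intervals and 70.3% of HSF2 intervals searched. With 4 units it was in 1, beside 2.27% and 1.13%. With 3 units and at most 1 mismatch it was in 6, beside 51.3% and 49.2%. In the other 42 results under alternatives the direction held and medians moved by less than 0.1 on the log2 scale or counts by at most 1.5 times.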
